A study of Vitis vinifera with 36 samples.

Results

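MYB14 (VIT_07s0005g03340) and MYB15 (VIT_05s0049g01020), the grape R2R3-MYB factors known as regulators of stilbene synthase genes, were taken from the read count table by their gene identifiers. They were 2 of 27751 genes. Berry RNA was sequenced from 'Summer Black', the parent cultivar, and from 'Nantaihutezao', a bud sport of it (a line grown from a mutated bud), taken by their roles as parent and bud sport to be the lines labelled 'Sanbenti' and '11-06-25' in GEO. Both were 3-year-old vines grown under plastic film, and the same 6 stages were collected from each, from S5 (veraison, the onset of ripening) to S10 (ripe), 7 days apart. Each of the 12 groups held 3 libraries, lettered a, b and c and described as biological replicates. The paper's methods describe picking berries from 2 clusters at each sampling, and do not say how these gave the replicates. The labels do not say whether the replicates came from separate vines, so the p-values measure the spread between such samples, and the bud sport is 1 line. The paper's methods describe the sampled tissue as pericarp.

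R2R3-MYB proteins bind DNA through a pair of adjacent MYB repeats and form one of the largest families of plant transcription factors. In grape, MYB14 and MYB15 are known to activate promoters of stilbene synthase (STS) genes, and both genes are known to respond to wounding, ultraviolet light and downy mildew together with STS. STS joins p-coumaroyl-CoA and malonyl-CoA into resveratrol, the parent stilbene, whereas chalcone synthase (CHS) uses the same substrates to open the flavonoid and anthocyanin pathway. Grape berry skin is known to accumulate resveratrol during ripening.

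The identifiers place MYB14 on chromosome 7 and MYB15 on chromosome 5, and the deposited annotation gives each protein 2 Myb-like DNA-binding domains. MYB14 carries the name R2R3 Myb14 transcription factor in that annotation, whereas MYB15 is described only as a myb-related protein Myb4. RefSeq lists them as MYB14 and LOC100254518. Both genes were read in all 36 libraries, MYB14 with 73 to 1027 reads per library and MYB15 with 94 to 1129. The gene numbered next to MYB15, VIT_05s0049g01010, is also annotated as a MYB, but it held 1 read in each of 2 libraries and none in the other 34. Reads were thus assigned to MYB15 and hardly at all to this neighbour, although how reads shared by similar MYB genes were assigned is not given in the sources used here.

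The libraries held 15323095 to 20469617 reads on genes. In all 36 of them the closest pair of libraries, over genes above a floor of total reads, came from the same cultivar and stage. The 3 Summer Black libraries of S5 stood apart. They had the fewest reads on genes (15323095 to 15583937, against 17664146 to 20469617 in the other 33), and VIT_16s0039g02230, the UDP-glucose:flavonoid glucosyltransferase gene that completes anthocyanin synthesis in coloured skin, was at 6.45 to 7.28 CPM (counts scaled to a common library size) in them and at 286.5 to 929.5 CPM in the other 33. The summed level of 18 seed marker genes, 6 of them without any read, was 31.8 to 33.4 CPM in these 3 libraries and 11.7 to 30.2 CPM in the other 33. The part of these differences in the S5 values below was not tested. In bulk berries, fewer cells of a type and less RNA per cell cannot be told apart.

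MYB14 was highest at veraison and declined through ripening in both cultivars, steeply in Summer Black and gradually in Nantaihutezao. At S5 its level was 51.1, 54.6 and 51.0 CPM in the Summer Black libraries a, b and c, and 32.0, 33.2 and 29.6 CPM in those of Nantaihutezao. At S6 it was 10.5, 11.7 and 9.43 CPM in Summer Black and 17.8, 23.4 and 20.2 CPM in Nantaihutezao. The parent was thus above the bud sport at veraison and below it 7 days later, with no overlap of libraries at either stage. At S7 the level was 6.85, 6.50 and 5.37 CPM in Summer Black and 10.02, 10.1 and 11.11 CPM in Nantaihutezao. At S8 it was 4.93, 5.90 and 5.39 CPM in Summer Black and 7.40, 7.58 and 7.67 CPM in Nantaihutezao. Every bud sport library was above every parent library at these stages as well. At S9 the level was 4.35, 3.89 and 4.20 CPM in Summer Black and 7.44, 8.01 and 9.85 CPM in Nantaihutezao, again without overlap. At S10 it was 4.85, 4.96 and 4.79 CPM in Summer Black and 4.41, 5.88 and 4.88 CPM in Nantaihutezao, and the cultivars overlapped.

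MYB15 ran the other way in Summer Black, where it was lowest at veraison and highest in ripe fruit. At S5 its level was 4.97, 6.38 and 6.55 CPM in the Summer Black libraries and 23.7, 23.6 and 25.7 CPM in those of Nantaihutezao. At S6 it was 9.17, 9.23 and 8.62 CPM in Summer Black and 56.7, 57.0 and 60.4 CPM in Nantaihutezao. All bud sport libraries were far above all parent libraries at these early stages, and the transcript peaked in the bud sport at S6 and S7. At S7 the level was 26.1, 28.7 and 31.3 CPM in Summer Black and 56.7, 58.6 and 57.5 CPM in Nantaihutezao. At S8 it was 29.6, 26.6 and 26.4 CPM in Summer Black and 41.7, 38.0 and 42.5 CPM in Nantaihutezao. At S8 the bud sport was below its own S7 level, and the gap between the cultivars was narrower. At S9 the level was 28.7, 30.02 and 25.5 CPM in Summer Black and 38.4, 34.1 and 37.5 CPM in Nantaihutezao. At S10 it was 50.6, 54.4 and 53.0 CPM in Summer Black and 29.1, 29.7 and 28.5 CPM in Nantaihutezao, so that the order of the cultivars had turned. No library of one cultivar overlapped the other at any stage for MYB15.

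**Figure D1:**
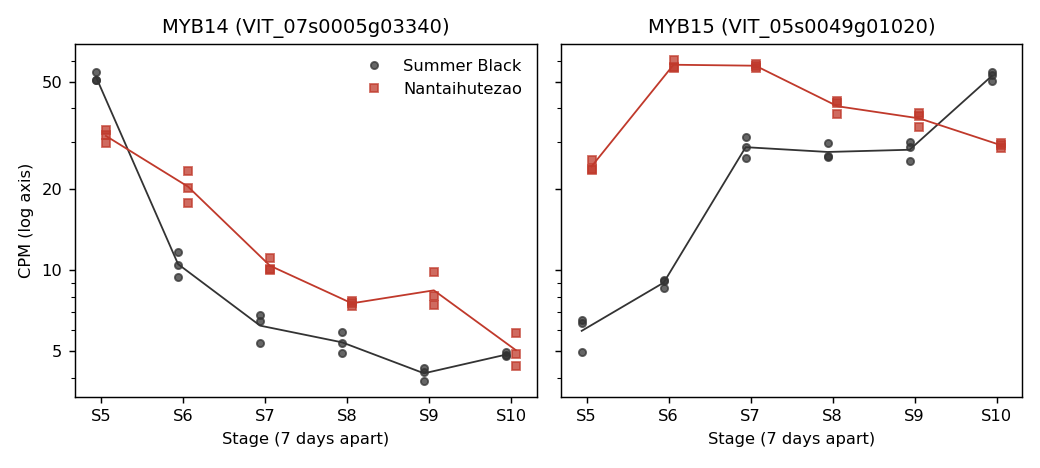
Level of MYB14 (left) and MYB15 (right) in CPM on a log axis at stages S5 to S10, 1 point per library, with lines through the means of 3 libraries. MYB14 fell from 52.2 to 4.87 CPM in Summer Black and from 31.6 to 5.06 CPM in Nantaihutezao, while MYB15 went from 5.97 to 52.7 CPM in Summer Black and peaked at 58.0 CPM at S6 in Nantaihutezao.

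Groups that do not overlap were common among all genes, since the libraries of the cultivars did not overlap for 67.7%, 48.4%, 53.4%, 45.2%, 37.9% and 51.8% of 16846 genes at S5 to S10. In order of mean level, MYB14 was highest in Summer Black S5 (52.2 CPM ± 2.06, SD, n = 3), then in Nantaihutezao S5 (31.6 ± 1.80) and S6 (20.5 ± 2.82), each apart from the next. Summer Black S6 (10.6 ± 1.15) and Nantaihutezao S7 (10.4 ± 0.606) overlapped. Lower down, Nantaihutezao S9 and S8 overlapped, and so did each neighbouring pair from Summer Black S7 through Summer Black S8 and Nantaihutezao S10 to Summer Black S10. The lowest group was Summer Black S9 (4.15 ± 0.233). For MYB15 the highest groups were Nantaihutezao S6 (58.0 ± 2.08) and S7 (57.6 ± 0.953), which overlapped, followed by Summer Black S10 (52.7 ± 1.90). Nantaihutezao S8 and S9 overlapped below these, as did the neighbours in the run from Nantaihutezao S10 (29.1 ± 0.588) through Summer Black S7 and S9 to Summer Black S8 (27.5 ± 1.83). Nantaihutezao S5 (24.3 ± 1.16), Summer Black S6 (9.01 ± 0.334) and Summer Black S5 (5.97 ± 0.868) were each apart from the next.

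Nantaihutezao was tested against Summer Black within each stage by edgeR's quasi-likelihood test over all genes, where a gene was called when its Benjamini-Hochberg adjusted p (FDR) was below 0.05 and its log2 fold change exceeded 1 in size. Called genes made up 16.1%, 6.57%, 8.02%, 6.46%, 5.29% and 8.69% of the genes tested at S5 to S10. Those higher in Nantaihutezao made up 7.51%, 2.69%, 3.47%, 2.71%, 3.44% and 3.59%, and those lower 8.63%, 3.89%, 4.55%, 3.76%, 1.85% and 5.1%. By FDR alone the shares were much larger, at 67.1%, 40.6%, 47.7%, 33.8%, 22.1% and 46.6%. An FDR below 0.05 therefore set a gene little apart from the others at most stages, and the size of the change is given with its place among all genes.

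MYB15 was called higher in Nantaihutezao at S5, S6 and S7. Its log2 fold change was 2.03 (SE 0.10, FDR 8.00e-11) at S5, a 4.09-fold difference, and larger than that of 98.2% of all genes tested. At S6 it was 2.69 (SE 0.074, FDR 5.80e-12), a 6.44-fold difference, and larger than that of 99.7% of genes. At S7 it was 1.004 (SE 0.063, FDR 2.89e-08), at the limit of the fold threshold, and 0.94 without Summer Black replicate a and 0.99 without Nantaihutezao replicate b, both uncalled. The difference was smaller at S8 (0.56, SE 0.075, FDR 1.68e-04) and at S9 (0.40, SE 0.092, FDR 0.0112). The values at S7, S8 and S9 were larger than those of 96.3%, 93.1% and 86.4% of genes. At S10 MYB15 was lower in Nantaihutezao (log2 fold change -0.86, SE 0.059, FDR 4.79e-09), and 6.66% of all genes had a lower value. The MYB15 difference between the cultivars was thus largest at S5 and S6, and its direction had turned by the ripe stage.

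MYB14 was lower in Nantaihutezao at S5 (log2 fold change -0.72, SE 0.058, FDR 2.27e-08) without reaching the fold threshold, and 13.5% of genes had a lower value. At S6 it was higher in Nantaihutezao by a log2 fold change of 0.96 (SE 0.12, FDR 1.68e-05), just under the threshold, and it was called without Nantaihutezao replicate a (1.05) and without Summer Black replicate b (1.04). The change at S6 was larger than that of 96.9% of genes. At S7 the log2 fold change was 0.74 (SE 0.12, FDR 2.08e-04) and at S8 0.48 (SE 0.13, FDR 0.0161), larger than those of 94.2% and 91.2% of genes. MYB14 was called higher in Nantaihutezao at S9 alone (1.03, SE 0.16, FDR 0.00116), a 2.05-fold difference that was uncalled without Nantaihutezao replicate c (0.91) or Summer Black replicate b (0.99). The S9 value was larger than that of 96.1% of genes, and the S10 value than that of 55.8%. At S10 the log2 fold change was 0.05 (SE 0.16, FDR 0.825), and a difference was not detectable at 82 to 110 reads per library. With 3 libraries against 3, the smallest two-sided p of an exact permutation test is 0.1, and the tests given are those of the fit over all genes.

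**Figure D2:**
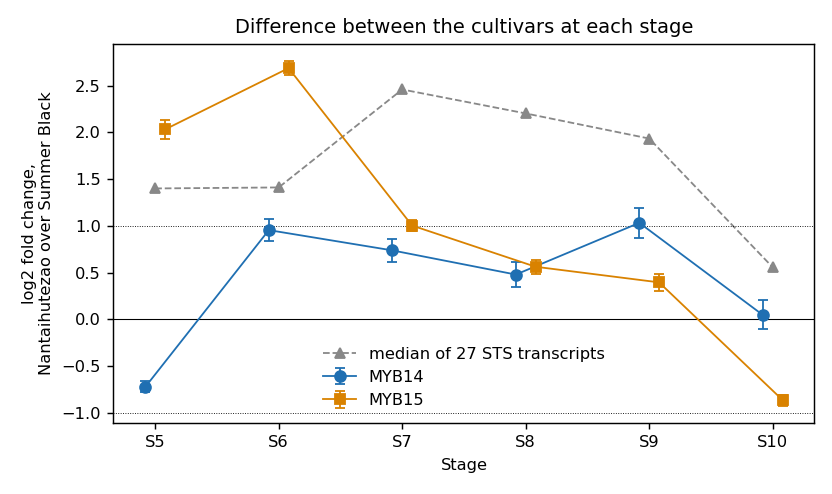
Log2 fold change of Nantaihutezao over Summer Black at each stage for MYB14 (circles) and MYB15 (squares) with bars of 1 standard error, and the median over 27 STS transcripts that the study chose for differing between the cultivars (triangles, dashed). Dotted lines mark the fold threshold of 1 on the log2 scale. MYB15 was at 2.03 and 2.69 at S5 and S6 and at -0.86 at S10, while MYB14 went from -0.72 at S5 to 1.03 at S9 and 0.05 at S10.

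The difference between the cultivars changed with stage for both genes. In a fit of all 36 libraries the interaction of cultivar and stage had F = 45.6 for MYB14 (FDR 1.18e-12, above the F of 93.2% of genes) and F = 260.9 for MYB15 (FDR 4.04e-23, above that of 99.5%). This interaction passed an FDR of 0.05 for 63.7% of all genes. Because the Summer Black S5 libraries stood apart, the test was repeated over the 30 libraries of S6 to S10, an alternative chosen after the data were seen. There 44.1% of genes passed, with F = 8.77 for MYB14 (FDR 4.86e-04) and F = 307.5 for MYB15 (FDR 1.64e-19). The F of MYB14 was therefore several times smaller without S5, and that of MYB15 was not. The cultivar difference at S10 minus that at S5 was 0.78 on the log2 scale for MYB14 (SE 0.16, FDR 1.10e-04), and for MYB15 it was -2.88 (SE 0.12, FDR 7.07e-21) and called, as were 16.9% of all genes.

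From stage to stage, MYB14 had a called fall in the first step in Summer Black and in no single step in Nantaihutezao. Its log2 fold change from S5 to S6 was -2.31 (SE 0.098, FDR 2.52e-20) and called, as were 17.8% of all genes in that step. Over the same step in Nantaihutezao it was -0.62 (SE 0.093, FDR 1.78e-06) and uncalled, in a step where 6.49% of genes were called. The next step in Nantaihutezao, S6 to S7, gave -0.97 (SE 0.10, FDR 9.95e-10), against 7.72% of all genes called. It was called without replicate a of every group (-1.04) or without replicate c of every group (-1.03). In Summer Black that step gave -0.76 (SE 0.12, FDR 2.10e-06), with 6.87% of genes called. No later step of MYB14 was called in either cultivar. In Nantaihutezao it fell by -0.46 (SE 0.11, FDR 0.00175) from S7 to S8 and by -0.74 (SE 0.12, FDR 1.95e-05) from S9 to S10. No change was detectable from S8 to S9 in Nantaihutezao (0.16, SE 0.12, FDR 0.315). In Summer Black the same 3 steps, in order of stage, were -0.21 (SE 0.13, FDR 0.228), -0.38 (SE 0.13, FDR 0.0243) and 0.23 (SE 0.14, FDR 0.202). From S5 to S10 MYB14 was 10.7-fold lower in Summer Black (log2 fold change -3.42, SE 0.11, FDR 1.93e-24) and 6.24-fold lower in Nantaihutezao (-2.64, SE 0.11, FDR 4.65e-21). Over that span 32.4% of all genes were called in Summer Black and 29.1% in Nantaihutezao.

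The called increase of MYB15 came 1 step earlier in the bud sport than in the parent. No library came from before S5, where the mean was already 24.3 CPM in Nantaihutezao against 5.97 CPM in Summer Black. The start of the rise was thus not observed in either cultivar. In Nantaihutezao it was S5 to S6 (log2 fold change 1.25, SE 0.072, FDR 1.32e-15), a 2.39-fold rise. In Summer Black the called step was S6 to S7 (1.67, SE 0.084, FDR 1.37e-17), a 3.18-fold rise, after 0.59 (SE 0.10, FDR 4.62e-06) from S5 to S6. In these called steps 6.49% of all genes were called in Nantaihutezao and 6.87% in Summer Black. No change was detectable in the parent over the next 2 steps, with log2 fold changes of -0.06 (SE 0.074, FDR 0.592) from S7 to S8 and 0.03 (SE 0.074, FDR 0.81) from S8 to S9. A second increase followed in Summer Black from S9 to S10 (0.91, SE 0.072, FDR 7.88e-12), short of the fold threshold. In Nantaihutezao MYB15 showed no detectable change from S6 to S7 (-0.01, SE 0.068, FDR 0.911) and then a decrease of -0.50 (SE 0.069, FDR 7.10e-07). Its last 2 steps were -0.15 (SE 0.071, FDR 0.109) and -0.33 (SE 0.073, FDR 7.44e-04). The share of all genes called in the later steps was 4.71%, 6.15% and 4.48% in Summer Black and 4.18%, 4.33% and 3.22% in Nantaihutezao, for S7 to S8, S8 to S9 and S9 to S10. From S5 to S10 MYB15 was 8.82-fold higher in Summer Black (log2 fold change 3.14, SE 0.086, FDR 3.27e-26) and changed by 0.26 (SE 0.075, FDR 0.00241) in Nantaihutezao. By FDR alone, 22.5% to 74.9% of genes passed in the 20 contrasts within or across stages of this fit.

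The bud sport is described as an early-ripening line, so its stages were also set against later stages of the parent. Over genes above a floor of total reads, the bud sport stages most like parent S6, S8, S9 and S10 were S5, S7, S8 and S8. Parent S5 was most like bud sport S5 (r = 0.940), and parent S7 was about as like S6 (r = 0.9698) as S7 (r = 0.9695). The second stage followed closely for parent S8 (r = 0.974 against 0.978), S9 (0.977 against 0.980) and S10 (0.980 against 0.983). Against the parent 2 stages later, MYB14 was higher in Nantaihutezao by log2 fold changes of 2.34 (SE 0.11, FDR 7.69e-19) at its S5, 1.92 (SE 0.11, FDR 4.63e-16) at S6 and 1.33 (SE 0.12, FDR 8.35e-11) at S7, all called. At S8 against parent S10 it was 0.63 (SE 0.12, FDR 1.38e-04). The share of all genes called in these 4 comparisons was 10%, 8.49%, 6.96% and 4.61%. Later alignment thus turned the S5 difference of MYB14 from lower to higher and widened those at S6 and S7. MYB15 at the same offset was -0.24 (SE 0.075, FDR 0.00844) at S5, 1.08 (SE 0.071, FDR 1.68e-14, called) at S6, 1.04 (SE 0.071, FDR 6.85e-14, called) at S7 and -0.37 (SE 0.070, FDR 6.82e-05) at S8. The called value at S7 was 0.97 without replicate c of every group, and then uncalled. On this alignment MYB15 was slightly lower in the bud sport at S5 and S8 and higher at S6 and S7.

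Against the parent 1 stage later, an offset added after the data were seen, MYB14 was higher in Nantaihutezao by 1.58 (SE 0.099, FDR 1.88e-14, called) at S5, 1.71 (SE 0.11, FDR 5.93e-15, called) at S6, 0.95 (SE 0.12, FDR 6.31e-08) at S7 and 0.86 (SE 0.13, FDR 1.82e-06) at S8. The S7 value was called without replicate b of every group (1.03). MYB15 was higher by 1.43 (SE 0.085, FDR 4.48e-15, called) at S5, 1.02 (SE 0.071, FDR 7.07e-14, called) at S6, 1.06 (SE 0.071, FDR 4.34e-14, called) at S7 and 0.54 (SE 0.072, FDR 3.40e-07) at S8. The S6 value was 0.97 without replicate a of every group and then uncalled. At this offset 3.86%, 8.01%, 5.83% and 5.25% of all genes were called. Both transcripts were higher in the bud sport at all 4 of these alignments. The remaining pair at this offset, Nantaihutezao S9 against Summer Black S10, was not tested. There the mean of MYB15 was lower in the bud sport (36.7 against 52.7 CPM), and that of MYB14 was higher (8.43 against 4.87 CPM). The comparisons at the same stage, 1 stage and 2 stages later share libraries, so their values are not independent of each other.

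**Figure D3:**
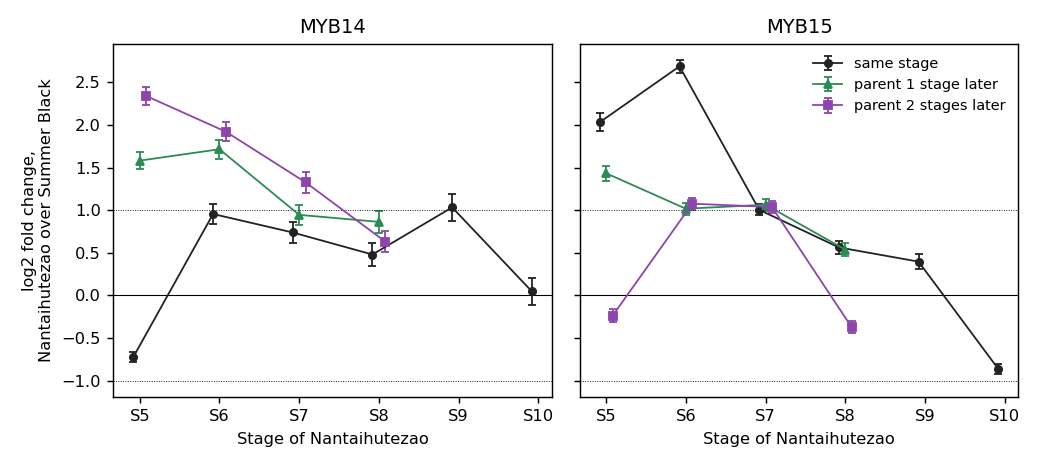
Log2 fold change of Nantaihutezao over Summer Black, with bars of 1 standard error, for MYB14 (left) and MYB15 (right), with the parent taken at the same stage, 1 stage later or 2 stages later. Dotted lines mark the fold threshold. The offset of 1 stage is shown for S5 to S8 of the bud sport, and its S9 against parent S10 was not tested. At S5 of the bud sport, MYB14 went from -0.72 to 1.58 and 2.34 as the parent stage was moved later, and MYB15 from 2.03 to 1.43 and -0.24.

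Levels of the 2 genes were compared with each other per transcript length, as FPKM (fragments scaled by transcript length and library size), by the log2 of their ratio after adding 1. In Summer Black the ratio of MYB14 to MYB15 was 3.03 ± 0.16 (SD, n = 3) at S5 and 0.34 ± 0.10 at S6, so MYB14 was the more abundant of the pair at these stages. From S7 on MYB15 was the more abundant, and the ratio went through -1.90 ± 0.28, -2.02 ± 0.20 and -2.36 ± 0.16 to -3.05 ± 0.05 at S10. In Nantaihutezao only S5 had MYB14 above MYB15 (0.50 ± 0.14), and the ratio was already -1.32 ± 0.19 at S6. From S7 to S10 it lay between -2.19 and -1.86 in the bud sport. The exchange of the more abundant member therefore fell between S6 and S7 in the parent and between S5 and S6 in the bud sport.

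**Figure D4:**
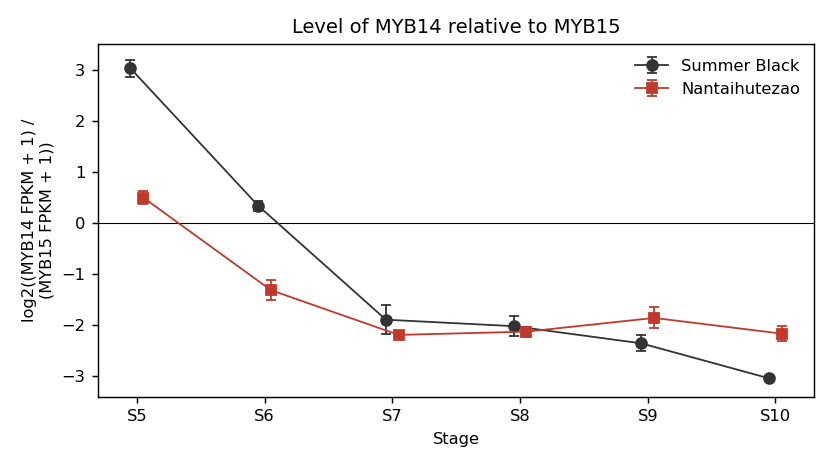
Log2 of the ratio of MYB14 to MYB15 (FPKM + 1) at each stage, as mean with bars of 1 SD over 3 libraries. Values above 0 mean more MYB14, which held at S5 and S6 in Summer Black (3.03 and 0.34) and at S5 alone in Nantaihutezao (0.50).

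The STS transcripts followed another course. The 27 listed here are those the study named as differing between the cultivars in these same libraries, not the whole family, and the PAL, C4H, 4CL and CHS transcripts below come from the study in the same way. The summed level of the 27 ran from S5 to S10 in Summer Black as 134.1 CPM ± 5.05 (SD, n = 3), 310.8 ± 37.4, 46.4 ± 9.05, 70.3 ± 5.22, 135.2 ± 21.6 and 460.9 ± 28.6. In Nantaihutezao it was 330.0 ± 14.2, 842.3 ± 20.7, 244.1 ± 11.96, 292.0 ± 17.2, 414.4 ± 16.5 and 642.9 ± 43.3 CPM. Both cultivars thus had a high at S6, a low at S7 and an increase to S10. Neither regulator had a low at S7, since MYB15 was above its S6 level in Summer Black and showed no detectable change from it in Nantaihutezao, and the mean of MYB14 at S8 was no higher than at S7 in either cultivar. The STS copies are near-identical in sequence, and reads that fit several copies may be split among them, which the sum is less open to than single copies.

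**Figure D5:**
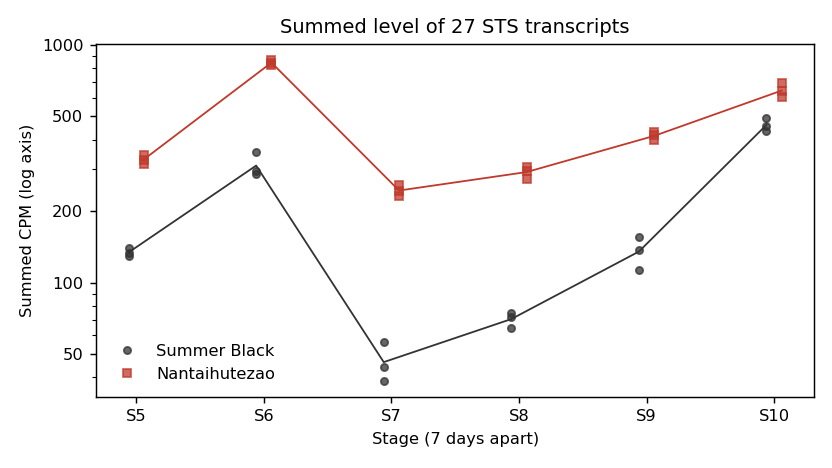
Summed level of 27 STS transcripts in CPM on a log axis at each stage, 1 point per library, with lines through the means of 3 libraries. Both cultivars had a high at S6 (310.8 and 842.3 CPM) and a low at S7 (46.4 and 244.1 CPM).

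Over the means of 6 stages within a cultivar, no relation of either regulator to the STS sum was detectable on the log2 scale. For MYB14 Pearson's r was 0.03 (exact permutation p = 0.972) and Spearman's rho -0.26 (exact p = 0.658) in Summer Black, and r was 0.01 (exact p = 0.985) and rho -0.03 (exact p = 1.0) in Nantaihutezao. For MYB15 r was -0.02 (exact p = 0.967) and rho 0.14 (exact p = 0.803) in Summer Black, and r was 0.05 (exact p = 0.924) and rho 0.03 (exact p = 1.0) in Nantaihutezao. The stages farthest from the median level of each regulator were S5 and S6, and without these r was -0.59 and -0.89 for MYB14 and 0.89 and -0.94 for MYB15, in Summer Black and Nantaihutezao. The sign over S7 to S10 thus differed between the cultivars for MYB15, over 4 points each. In Nantaihutezao the MYB15 levels at S6 and S7 were nearly equal (58.0 and 57.6 CPM), and their libraries overlapped. Leaving out S6 rather than S7 was a close choice there, and r without S5 and S7 was not calculated. MYB14 and MYB15 had r = -0.88 with each other in Summer Black (exact p = 0.0139, adjusted over 6 relations 0.0833, rho -0.71 with exact p = 0.136), which rested on S5 and S6, since r was -0.16 without them. In Nantaihutezao r was -0.04 (exact p = 0.946), and 0.91 without S5 and S6. No adjusted p of the 6 relations was below 0.05, and successive stages are not independent samples.

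Single STS transcripts showed the same. With MYB14, 13 of 27 had an r above 0 in Summer Black and 12 in Nantaihutezao, with medians of -0.01 and -0.21. With MYB15, 16 and 15 had an r above 0, with medians of 0.02 and 0.02. Of these, the STS transcripts of highest mean level, VIT_16s0100g01030 and VIT_16s0100g01150, both had their low at S7 (6.17 ± 1.72 and 4.89 ± 1.65 CPM in Summer Black, 31.3 ± 1.05 and 18.3 ± 1.78 CPM in Nantaihutezao). Phenylalanine ammonia-lyase (PAL) starts the phenylpropanoid pathway that feeds STS. With MYB15, 11 of the 12 listed PAL transcripts had an r above 0 in Summer Black (median 0.32) and 12 in Nantaihutezao (median 0.35), whereas with MYB14 it was 2 and 4 of 12. Most of these PAL identifiers form a close run of numbers, and whether they share reads was not checked. The 3 listed CHS transcripts were inverse to MYB14 in Summer Black (r -0.98 to -0.93), and 2 of 3 were positive in Nantaihutezao (-0.86 to 0.89). With MYB15 they were positive in both cultivars (0.68 to 0.94 and 0.33 to 0.71). Over all genes, 51.5% and 49.7% had an r above 0 with MYB14 and 49.1% and 50.7% with MYB15, in Summer Black and Nantaihutezao. These correlations are descriptions over 6 stage means that share libraries.

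The cultivar difference of the listed pathway transcripts is given beside that of the regulators as a description, since these transcripts were chosen for that difference in these libraries and their counts are no independent evidence of its direction. At S5, where MYB15 was called higher and MYB14 was lower, 20 of 27 STS transcripts were called higher (median log2 fold change 1.40). At S6, S7, S8 and S9 it was 25, 27, 27 and 25 of 27 (medians 1.41, 2.46, 2.20 and 1.93), and at S10 2 of 27 (median 0.56). MYB15 was called higher at S6 and S7 and MYB14 at S9, so S8 was the stage with many STS calls and neither regulator called. Of the 12 PAL transcripts listed, 2 of 10 tested were higher at S5 and 1 lower, 11 of 12 were higher at S6, then 8, 7 and 8 of 11 over the next 3 stages, and in ripe fruit 0 were higher and 2 of 12 lower. Of 3 listed transcripts of cinnamate 4-hydroxylase (C4H), the enzyme after PAL, 3 were higher at S5 and at S6. At S7 1 of 2 tested was higher, at S8 and S9 1 of 3, and at S10 none was called. Of 3 listed transcripts of 4-coumarate-CoA ligase (4CL), which activates coumaric acid for STS and CHS, 2 of 2 tested were higher at S5, then 1, 2, 1 and 0 of 3 over the next 4 stages, and 1 was higher and 1 lower in ripe fruit. Of the CHS transcripts listed, 2 of 2 tested were higher at S5, 1 of 3 at S6 and none at S7 to S9, and 2 of 3 were lower at S10.

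Other genes annotated as R2R3-MYB, a list taken from the deposited annotation, were called in both directions. Of 129 listed, 60 passed the filter on low counts at S5, where 6 were called higher in Nantaihutezao (10%, against 7.51% of all genes) and 15 lower (25%, against 8.63%). At S6, 2 of 47 were higher (4.26%, against 2.69%) and 4 lower (8.51%, against 3.89%). At S7, 2 of 46 were higher (4.35%, against 3.47%) and 11 lower (23.9%, against 4.55%). More of the listed genes were called lower than higher at these 3 stages. At S8, 1 of 44 was higher (2.27%, against 2.71%) and 6 lower (13.6%, against 3.76%). At S9, 6 of 45 were higher (13.3%, against 3.44%) and 3 lower (6.67%, against 1.85%). At S10, 6 of 49 were higher (12.2%, against 3.59%) and 8 lower (16.3%, against 5.1%). Whether these shares differ from those of all genes was not tested. Ranked by log2 fold change among the tested MYB genes with both members counted, MYB15 was 4th of 62 at S5, 2nd of 49 at S6, 3rd of 48 at S7 and 5th of 46 at S8, then 16th of 47 at S9 and 43rd of 51 at S10. MYB14 was 42nd of 62 at S5, 4th of 49 at S6, 7th at both S7 and S8, 8th for S9 and 24th of 51 in ripe fruit. MYB14 and MYB15 were thus both among the upper MYB genes at S6 to S8.

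The genes whose pattern was most like each member were taken by Pearson's r of log2 CPM over the 36 libraries. For MYB14 they were VIT_18s0001g15660, annotated as a pathogen-related protein (r = 0.966, and 0.906 over the 30 libraries without S5), VIT_14s0171g00140, annotated as a LysM receptor-like kinase (0.939 and 0.852), VIT_19s0015g00550, a nudix hydrolase (0.937 and 0.913), VIT_13s0156g00170, a gene of molybdenum cofactor synthesis (0.935 and 0.768), and VIT_08s0007g02620, a ribosomal protein S17 (0.931 and 0.812). For MYB15 they were VIT_03s0017g01290, annotated as an ABC transporter of the G family (0.953 and 0.912), VIT_08s0040g01770, a cyclic nucleotide-gated ion channel (0.924 and 0.880), VIT_13s0047g00200, a subtilisin-like protease (0.920 and 0.883), VIT_11s0016g04720, an EG45-like domain protein (0.916 and 0.833), and VIT_17s0000g08770, a cysteine-rich receptor-like kinase (0.913 and 0.827). No STS transcript was among the 5 nearest of either member, and no gene was in both lists. Lists of 5 out of 16845 genes are too short for this absence to bear on a relation to STS. MYB14 and MYB15 had r = -0.464 with each other over the 36 libraries. These libraries share 12 groups, so the correlations describe the course over stages and cultivars.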

How the data were processed

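Per the study's methods, berry libraries (TruSeq, HiSeq X-ten) were aligned with TopHat 2 to the Vitis vinifera reference; build, counter and the handling of multiply mapped reads are not given in the sources used here. The authors deposited read counts per gene and FPKM from Cuffdiff. Deposited columns of the authors' own comparisons (log2 fold changes and FDR) were not used. Counts of genes passing a filter (minimum count 10, minimum total 15) were TMM-scaled and tested with edgeR 4.0.16 (R 4.3.3), per stage on 6 libraries and on all 36 libraries for interactions, stage steps and offsets. SE is the log2 fold change divided by the root of F. The code was tested on simulated data. CPM used these scaled library sizes; ratios used FPKM with a pseudocount of 1. Named genes were both members, their 5 nearest genes by r, the numbered neighbour of MYB15 and the 2 STS transcripts of highest level. Members and lists were chosen with earlier results of these data known. The STS, PAL, C4H, 4CL and CHS lists are transcripts the study named as differing in these libraries. Alternatives were DESeq2 1.42.0, its size factors, upper-quartile scaling, no filter, a fold-threshold test (glmTreat), a replicate block and leaving out replicates. Upper-quartile scaling and glmTreat were applied only to the comparisons of cultivars within a stage. Both members were matched to RefSeq gene records (assembly ASM3070453v1) by NCBI gene ID, and the record of MYB15 does not carry that name. No sequences are shown.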

Additional observations from a re-analysis of the deposited data

Results flagged for a closer look

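Both genes differed between the cultivars by amounts that depended on stage. The interaction of cultivar and stage had F = 45.6 for MYB14 and F = 260.9 for MYB15 in edgeR's quasi-likelihood test (FDR 1.18e-12 and 4.04e-23). The cultivar difference at S10 minus that at S5 was 0.78 on the log2 scale for MYB14 and -2.88 for MYB15, in opposite directions. The MYB14 value was not called, and the interaction passed an FDR of 0.05 for 63.7% of all genes. Without S5, where the Summer Black libraries stood apart, the F of MYB14 was several times smaller.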

How the results depend on the processing

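Of the alternatives for tested values and relations, 477 kept direction and side of the threshold, 8 lost a call, 5 gained one and 6 changed sign. The lowest libraries held 73 reads of MYB14 and 94 of MYB15. Within stages, the test against the fold threshold itself (glmTreat) left MYB15 at S7 (1.004) and MYB14 at S9 (1.03) uncalled. It was not run on stage steps or on comparisons with later parent stages. Leaving out 1 library within a stage gave log2 fold changes from 0.85 to 1.05 for MYB14 at S6 and 0.94 to 1.07 for MYB15 at S7. For MYB14 it gave 0.91 to 1.12 at S9 and -0.073 to 0.14 at S10. For stage steps, later parent stages and the r with STS, 1 replicate letter was left out of every group instead. For stage steps this gave -1.04 to -0.85 for MYB14 from S6 to S7 in Nantaihutezao, and -0.039 to 0.020 for MYB15 in that step. For MYB15 in Summer Black it gave -0.18 to 0.038 (S7 to S8) and -0.050 to 0.068 (S8 to S9). For later parent stages it gave 0.97 to 1.05 for MYB15 (S6 against S7), 0.89 to 1.03 for MYB14 (S7 against S8) and 0.97 to 1.07 for MYB15 (S7 against S9). The r with STS ranged from -0.032 to 0.046 for MYB14 in Nantaihutezao and from -0.038 to 0.0053 for MYB15 in Summer Black. The cause of these changes was not tested. Under glmTreat, counts of listed transcripts called in either direction moved by over 1.5 times for STS at S6 (25 to 16) and S10 (2 to 0), PAL at S8 (7 to 3), S9 (8 to 2) and S10 (2 to 0), C4H at S6 (3 to 1) and S8 (1 to 0), 4CL at S7 (2 to 0) and S8 (1 to 0), CHS at S6 (1 to 0) and S10 (2 to 1), and MYB genes at S6 (6 to 2), S7 (13 to 3), S8 (7 to 3), S9 (9 to 3) and S10 (14 to 6). A pseudocount of 0.1 FPKM moved the ratio of MYB14 to MYB15 in 6 groups, for example to 3.22 in Summer Black S5, with no change of sign. Between the cultivars at the same stage, 0 of 18 same-letter pairs had a correlation of deviations over 0.1 (range -0.056 to 0.076), so replicate letters showed no pairing there. Whether letters pair libraries across the stages of a cultivar was not checked. With the letter as a replicate block MYB15 was at 1.01 at S7 and MYB14 at 1.02 at S9, and no call changed.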
